A study of Mus musculus with 2 samples.

Results

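The transforming growth factor beta (TGF-beta) genes followed here are 8 of the 31055 features in the count tables. They are the ligand genes Tgfb1, Tgfb2 and Tgfb3, the receptor genes Tgfbr1, Tgfbr2 and Tgfbr3, the TGF-beta-induced matrix gene Tgfbi, and Ltbp4, which encodes a latent TGF-beta binding protein. All 8 symbols were found in the feature lists of both libraries. The genes were described across classes of cells from the vessels and surroundings of tumors of 2 mouse models, 1 library for each tumor model. One library came from orthotopic PyMT breast tumors and the other from orthotopic KPC pancreatic tumors. Both were grown from 100000 implanted tumor cells in 6-week-old female C57BL6 wild-type mice and digested 10 days after implantation. Cells bearing CD45, EpCAM, Ter119, podoplanin or annexin V were depleted before blood vascular endothelial cells (BECs) were sorted, so the other cells in the libraries are those that passed the depletion and the sort. PyMT and KPC are each a single transplanted tumor line, and the number of mice pooled into a library is not given in the sources used here.

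TGF-beta ligands are secreted as latent complexes, bound to their own propeptide and often to a latent TGF-beta binding protein that anchors the complex in the matrix. Integrins, proteases and thrombospondins release the ligand, which then binds the type II receptor encoded by Tgfbr2. The type II receptor in turn activates the type I receptor encoded by Tgfbr1 (or, in endothelium, the type I receptor encoded by Acvrl1), and SMAD proteins carry the signal to the nucleus. Tgfbr3 encodes betaglycan, a co-receptor that helps TGF-beta2 in particular to reach the signaling receptors. In vessels the pathway is known for its part in mural cell differentiation and in endothelial quiescence.

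With 1 library per tumor model there was no replicate, so no difference between the models or between classes of cells was tested. Each level is a sum of unique molecular identifiers (UMIs) scaled to 1000000 UMIs of the class (CPM), and the intervals are exact 95% intervals that cover counting error only. They do not include the spread between mice, and differences between the PyMT and KPC libraries cannot be told apart from differences between 2 preparations. A ratio was read only where a gene had at least 20 UMIs over both classes compared, and it was called past 2-fold at a log2 ratio of at least 1 in either direction. Neighbors in the order of classes were compared without this minimum.

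The PyMT library held 12464 barcodes and 55547926 UMIs (median 3805 per barcode), and the KPC library held 10236 barcodes and 44441942 UMIs (median 2958). Barcodes passing a minimum of 500 genes and a mitochondrial share below 10% of UMIs numbered 11744 and 9591. The libraries shared 170 barcode sequences, 1.36% of the PyMT barcodes and 1.66% of the KPC barcodes. Cells were sorted into 9 classes by UMI sums of gene pairs in a fixed order. The cells with Krt8 and Krt18 (at least 5 UMIs) numbered 379 in PyMT and 794 in KPC. The fibroblast class (Col1a1 and Col1a2, at least 10) held 28 and 443 cells, the lymphatic class (Mmrn1 and Prox1, at least 3) 633 and 802, and the pericyte class (Notch3 and Higd1b, at least 2) 27 and 119. The venule class (Ackr1 and Selp, at least 3) held 360 and 640 cells, and the artery class (Gja5 and Sema3g, at least 2) 126 and 105. The Apln/Angpt2 class (at least 3), whose genes mark tip cells, held 1991 and 1302 cells, and the Car4/Cd300lg class (at least 2), whose genes mark capillaries, held 2597 and 1297. The remaining 5603 and 4089 cells met no threshold. The venule, artery, Apln/Angpt2 and Car4/Cd300lg classes together are called blood endothelium below (5074 and 3344 cells).

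Marker genes outside the rule did not back every class name. For the artery, lymphatic, pericyte and fibroblast classes, 6 of 6 markers were highest in their own class in both libraries. For the Car4/Cd300lg class this was true of 5 of 6 capillary markers in KPC and 0 of 6 in PyMT, and for the Apln/Angpt2 class of 4 of 6 tip markers in KPC and 2 of 6 in PyMT, so both classes are called by their genes. For the venule class it was true of 3 of 6 venule markers in PyMT and 4 of 6 in KPC, and 52.5% of PyMT and 22.2% of KPC venule cells also reached another class, so venule here names the cells of its rule. In the Krt8/Krt18 class the epithelial marker Krt19 stood at 2789 CPM in KPC and 1.02 CPM in PyMT, and the summed tumor markers at 4824 and 41.4 CPM. Of the 6 tumor markers, 6 were highest in this class in KPC and 4 in PyMT. Krt7 stood at 17.7 CPM and Epcam at 19.7 CPM in the PyMT class, against at most 0.154 CPM in any other PyMT class. In the KPC class they stood at 1482 and 170 CPM. The PyMT pericyte class carried 3387 CPM of the 6 endothelial markers, close to the 3644 to 4126 CPM of the blood endothelial classes, and 59.3% of its cells also reached another class. A class boundary was rarely sharp: 742 of the 2597 PyMT and 627 of the 1297 KPC cells of the Car4/Cd300lg class sat exactly at its threshold. The median depth per cell ran from 1879 UMIs (KPC Car4/Cd300lg) to 12688 UMIs (KPC Krt8/Krt18). Levels are therefore given in CPM, and shares of cells with a UMI of a member only after thinning each cell to 2000 UMIs. Shares of cells with a Pecam1 or Cdh5 UMI are unthinned.

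For 6 of the 8 genes, the RefSeq promoter table (GRCm38.p6) gave a stretch of bases upstream of the gene start. Those of Tgfb2, Tgfbi and Ltbp4 are shown, 3 of the genes whose levels differed past 2-fold between blood endothelial classes or between the libraries. Capitals mark CAGAC, the core of a known SMAD binding element, searched on both strands (read as GTCTG on the other strand).

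Tgfb2, chr1:186705990-186706239, minus strand: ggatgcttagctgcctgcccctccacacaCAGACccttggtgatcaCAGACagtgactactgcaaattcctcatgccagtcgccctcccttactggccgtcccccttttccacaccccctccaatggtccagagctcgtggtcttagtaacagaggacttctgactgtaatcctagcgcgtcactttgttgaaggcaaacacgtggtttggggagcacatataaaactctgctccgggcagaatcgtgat

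Tgfbi, chr13:56609336-56609522, plus strand: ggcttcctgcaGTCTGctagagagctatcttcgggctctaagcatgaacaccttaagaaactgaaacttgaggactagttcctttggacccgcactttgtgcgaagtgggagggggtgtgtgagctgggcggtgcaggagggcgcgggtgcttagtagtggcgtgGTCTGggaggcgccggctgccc

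Ltbp4, chr7:27337693-27337862, minus strand: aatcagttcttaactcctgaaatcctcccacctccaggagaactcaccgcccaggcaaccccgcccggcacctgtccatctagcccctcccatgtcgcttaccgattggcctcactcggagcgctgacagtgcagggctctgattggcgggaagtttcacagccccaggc

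The Tgfb2 stretch of 250 bases held 2 matches, 221 and 204 bases upstream of the gene start, and the Tgfbi stretch of 187 bases held 2, at 176 and 22 bases. The Ltbp4 stretch of 170 bases held 0. Of 32851 promoters cut to the same lengths, 42.2%, 34.2% and 31.8% held at least 1 match, so a match is common. The letters TATAAA stood 31 bases upstream of the Tgfb2 gene start and in neither other stretch. In GRCm38, Tgfb2 lies at chr1:186622792-186705989, Tgfbi at chr13:56609523-56639562 and Ltbp4 at chr7:27305136-27337692. Tgfb1 lies at chr7:25687002-25705077, Tgfb3 at chr12:86056745-86079041, Tgfbr1 at chr4:47353222-47414931, Tgfbr2 at chr9:116084293-116175360 and Tgfbr3 at chr5:107106570-107289629. Tgfb2 overlaps Gm29491 and Tgfb3 overlaps Ttll5 on the opposite strand, and the strand setting of the counting is not given in the sources used here, so their counts may hold reads of these partners.

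Among the ligand genes, Tgfb1 was counted in every class, Tgfb2 was low in venules, and Tgfb3 was nearly absent from blood endothelium. Tgfb1 encodes the most widely produced ligand. In PyMT it stood at 209 CPM in venules, 215 in arteries, 220.3 in the Apln/Angpt2 class and 225 in the Car4/Cd300lg class, and at 254 CPM in lymphatic cells. In KPC the same classes stood at 184, 148, 174, 221 (Car4/Cd300lg) and 213 CPM (lymphatic). In PyMT no neighbors in the order of the 4 blood classes differed beyond counting error. In KPC, venules lay slightly below the Car4/Cd300lg class (log2 ratio -0.27, interval -0.43 to -0.11). The KPC Apln/Angpt2 class (log2 ratio -0.35, interval -0.48 to -0.22) and arteries (-0.58, interval -1.03 to -0.16) also lay below it. The Krt8/Krt18 class was lower, at 131 CPM in PyMT and 83.5 CPM in KPC. In the cells thinned to 2000 UMIs, Tgfb1 had a UMI in 35.3% of PyMT Apln/Angpt2 cells and 36.5% of PyMT Car4/Cd300lg cells, and in 24.7% of the PyMT Krt8/Krt18 cells.

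Tgfb2, which encodes the ligand that depends most on betaglycan, had its lowest endothelial level in venules in both libraries. In PyMT it stood at 4.00 CPM in venules (6 UMIs, interval 1.47 to 8.71), 26.7 in arteries (13 UMIs), 21.4 in the Apln/Angpt2 class and 18.02 in the Car4/Cd300lg class. In KPC it stood at 5.12 CPM in venules (15 UMIs, interval 2.87 to 8.45), 52.6 in arteries (17 UMIs), 13.3 in the Apln/Angpt2 class and 18.4 in the Car4/Cd300lg class. The venule interval lay below those of the other blood classes in each library. Venules were 4.51-fold below the Car4/Cd300lg class in PyMT (log2 ratio -2.17, interval -3.63 to -1.03) and 3.60-fold below it in KPC (log2 ratio -1.85, interval -2.77 to -1.02). After thinning, 1.05% of PyMT and 0.563% of KPC venule cells had a Tgfb2 UMI, against 7.48% and 10.4% of artery cells. Outside blood endothelium Tgfb2 was higher in KPC pericytes (69.2 CPM), KPC fibroblasts (62.2 CPM) and lymphatic cells (36.4 CPM in PyMT and 52.3 CPM in KPC), and low in the Krt8/Krt18 class (8.15 and 1.84 CPM).

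Tgfb3 separated blood endothelium from the lymphatic, stromal and Krt8/Krt18 classes. Blood endothelium held 24 UMIs of Tgfb3 in PyMT (0.866 CPM) and 14 in KPC (0.915 CPM). The KPC artery and Car4/Cd300lg classes held 0 UMIs, which allows up to 9.27 CPM in arteries and 0.839 CPM in the Car4/Cd300lg class at 3 UMIs each. The unclassified cells lay higher than blood endothelium, at 8.8 CPM in PyMT (187 UMIs) and 4.4 CPM in KPC (50 UMIs). They held 39.5% and 9.8% of the Tgfb3 UMIs in kept cells. A Pecam1 or Cdh5 UMI was found in 92.8% and 91.0% of them, and in 87.5% and 88.2% of lymphatic cells. The 6 lymphatic markers summed to 607 and 775 CPM in the unclassified cells. In the blood classes they summed to at most 341 CPM in PyMT and 177 CPM in KPC. Of the unclassified cells, 148 and 111 lay 1 UMI below the lymphatic threshold. The part of lymphatic cells in their Tgfb3 was not tested. Lymphatic cells stood at 30.7 CPM in PyMT (82 UMIs) and 30.5 CPM in KPC (108 UMIs). Pericytes stood at 33.6 CPM (4 UMIs) and 38.7 CPM (19 UMIs), and fibroblasts at 70.7 CPM (9 UMIs) and 67.7 CPM (160 UMIs). The lymphatic levels differed little between the libraries (log2 ratio of PyMT over KPC 0.01, interval -0.42 to 0.44). The intervals of this ratio were wide in pericytes (-2.22 to 1.39) and fibroblasts (-1.09 to 1.02). The Krt8/Krt18 class stood at 56.7 CPM in PyMT (167 UMIs) and 14.6 CPM in KPC (159 UMIs). In cells thinned to 2000 UMIs, 0.206% and 0.162% of Apln/Angpt2 cells had a Tgfb3 UMI, against 6.34% and 7.64% of lymphatic cells. Free RNA was not measured here, and its part in the few blood endothelial Tgfb3 UMIs was not tested.

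**Figure D1:**
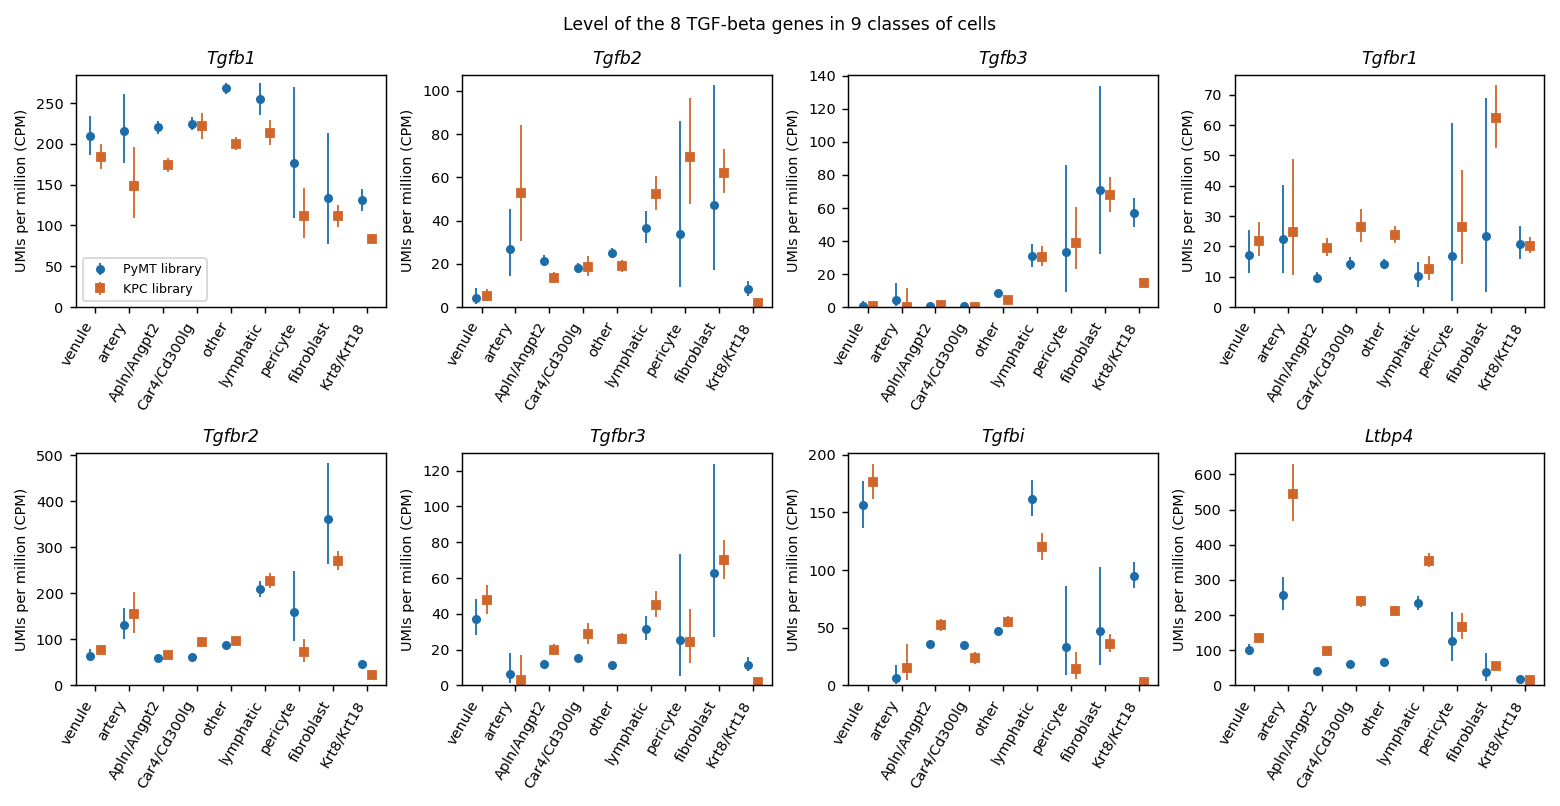
Level of each of the 8 genes (y axis, CPM of the class, starting at 0) in 9 classes of cells (x axis) in the PyMT library (circles) and the KPC library (squares), with exact 95% Poisson intervals as bars. Tgfb3 lies near 0 in the 4 blood endothelial classes and above 14 CPM in lymphatic cells, pericytes, fibroblasts and Krt8/Krt18 cells. In the unclassified (other) cells it stands at 8.8 CPM in PyMT and 4.4 CPM in KPC. Tgfbi is highest in venules and lymphatic cells, and Ltbp4 is highest in arteries and lymphatic cells.

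The receptor genes differed in where they were highest. Tgfbr2, which encodes the type II receptor that binds ligand, was highest in fibroblasts (361 CPM in PyMT and 271 in KPC), followed by lymphatic cells (209 and 227 CPM). Within blood endothelium it was highest in arteries, at 131 CPM in PyMT (64 UMIs) and 155 CPM in KPC (50 UMIs). Venules stood at 64.7 and 76.2 CPM, the Apln/Angpt2 class at 60.2 and 65.0 CPM, and the Car4/Cd300lg class at 61.9 and 94.2 CPM. Arteries were 2.12-fold above the Car4/Cd300lg class in PyMT (log2 ratio 1.08, interval 0.69 to 1.45), and the log2 ratio in KPC was 0.71 (interval 0.26 to 1.15). Among the PyMT venule, Car4/Cd300lg and Apln/Angpt2 classes, neighbors in the order of Tgfbr2 levels did not differ beyond counting error.

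Tgfbr1, the type I receptor gene, was the flattest of the receptor genes. In PyMT its level ran from 9.61 CPM (Apln/Angpt2) to 23.6 CPM (fibroblasts, 3 UMIs), and no neighbors in the order of classes differed beyond counting error. The pairs with fibroblasts or with pericytes (2 UMIs) rested on few molecules. Classes further apart did differ. The PyMT Apln/Angpt2 class lay below the Car4/Cd300lg class (log2 ratio -0.57, interval -0.91 to -0.23). The PyMT Krt8/Krt18 class lay above blood endothelium (log2 ratio 0.74, interval 0.325 to 1.14). In KPC it ran from 12.4 CPM in lymphatic cells to 62.2 CPM in fibroblasts (147 UMIs), with the 4 blood classes between 19.6 and 26.6 CPM. KPC fibroblasts thus stood 2.86-fold above KPC blood endothelium (log2 ratio 1.52, interval 1.23 to 1.80).

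Tgfbr3, the betaglycan gene, was opposite to Tgfb2 within blood endothelium: highest in venules and lowest in arteries. In PyMT it stood at 37.3 CPM in venules (56 UMIs), 6.15 in arteries (3 UMIs), 12.1 in the Apln/Angpt2 class and 15.3 in the Car4/Cd300lg class. In KPC it stood at 47.5 CPM in venules (139 UMIs), 3.09 in arteries (1 UMI), 19.9 in the Apln/Angpt2 class and 28.5 in the Car4/Cd300lg class. The order of the 4 classes was the same in both libraries. Venules exceeded the Car4/Cd300lg class 2.45-fold in PyMT (log2 ratio 1.29, interval 0.83 to 1.73), and the log2 ratio was 0.73 in KPC (interval 0.36 to 1.12). The artery ratio rested on few molecules, with log2 values of -1.31 in PyMT (interval -3.60 to 0.26, which includes 0) and -3.21 in KPC (interval -8.52 to -0.70). Lymphatic cells stood at 31.5 and 45.0 CPM and fibroblasts at 62.8 and 69.8 CPM.

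Tgfbi encodes a secreted matrix protein that binds integrins and takes its name from its induction by TGF-beta. Of the 8 genes it had the highest ratio of venules over the Car4/Cd300lg class in both libraries. In PyMT it stood at 156 CPM in venules (234 UMIs), 6.15 in arteries (3 UMIs), 36.1 in the Apln/Angpt2 class and 35.0 in the Car4/Cd300lg class. In KPC it stood at 176 CPM in venules (516 UMIs), 15.5 in arteries (5 UMIs), 52.4 in the Apln/Angpt2 class and 23.8 in the Car4/Cd300lg class. Venules did not overlap the other blood classes in either library. They exceeded the Car4/Cd300lg class 4.45-fold in PyMT (log2 ratio 2.15, interval 1.92 to 2.39) and 7.41-fold in KPC (log2 ratio 2.89, interval 2.56 to 3.24), and the ratio stayed past 2-fold under all alternative settings. After thinning, 23.2% of PyMT and 27.0% of KPC venule cells had a Tgfbi UMI, against 6.55% and 5.19% of Car4/Cd300lg cells. Myeloid cells also produce Tgfbi, and the 6 immune markers summed to 16.7 CPM in PyMT venules and 13.0 CPM in the Car4/Cd300lg class, and to 64.5 and 70.5 CPM in KPC. Within that list, Cd74, an antigen presentation gene, stood at 44.05 CPM in KPC venules against 10.1 CPM in the Car4/Cd300lg class, and Lyz2, a myeloid lysozyme gene, at 9.22 against 46.7 CPM. The part of immune cell RNA in the Tgfbi values was not tested.

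Lymphatic cells held Tgfbi at 162 CPM in PyMT and 120 CPM in KPC. The PyMT lymphatic and venule levels did not differ beyond counting error (log2 ratio 0.05, interval -0.18 to 0.29), whereas in KPC venules stood above lymphatic cells (log2 ratio 0.55, interval 0.36 to 0.74). Venules contributed 8.12% of all Tgfbi UMIs in kept PyMT cells and 23.2% in kept KPC cells, with 3.06% and 6.67% of the cells.

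Ltbp4 encodes a protein that tethers latent TGF-beta1 in the matrix and also takes part in elastic fiber assembly. Arteries had its highest level in both libraries, 258 CPM in PyMT (126 UMIs) and 544 CPM in KPC (176 UMIs). Lymphatic cells followed at 234 and 355 CPM. In PyMT the artery and lymphatic levels did not differ beyond counting error (log2 ratio 0.14, interval -0.14 to 0.42), and in KPC arteries were higher (log2 ratio 0.62, interval 0.38 to 0.84). Arteries exceeded the Car4/Cd300lg class 4.34-fold in PyMT (log2 ratio 2.12, interval 1.83 to 2.39) and 2.28-fold in KPC (log2 ratio 1.19, interval 0.94 to 1.42). The other blood classes took a different order in each library. In PyMT venules stood at 101 CPM, the Car4/Cd300lg class at 59.6 and the Apln/Angpt2 class at 39.7. In KPC the Car4/Cd300lg class stood at 239 CPM, venules at 136 and the Apln/Angpt2 class at 98.5. Venules were thus above the Car4/Cd300lg class in PyMT (log2 ratio 0.77, interval 0.51 to 1.02) and below it in KPC (log2 ratio -0.81, interval -0.99 to -0.64).

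**Figure D2:**
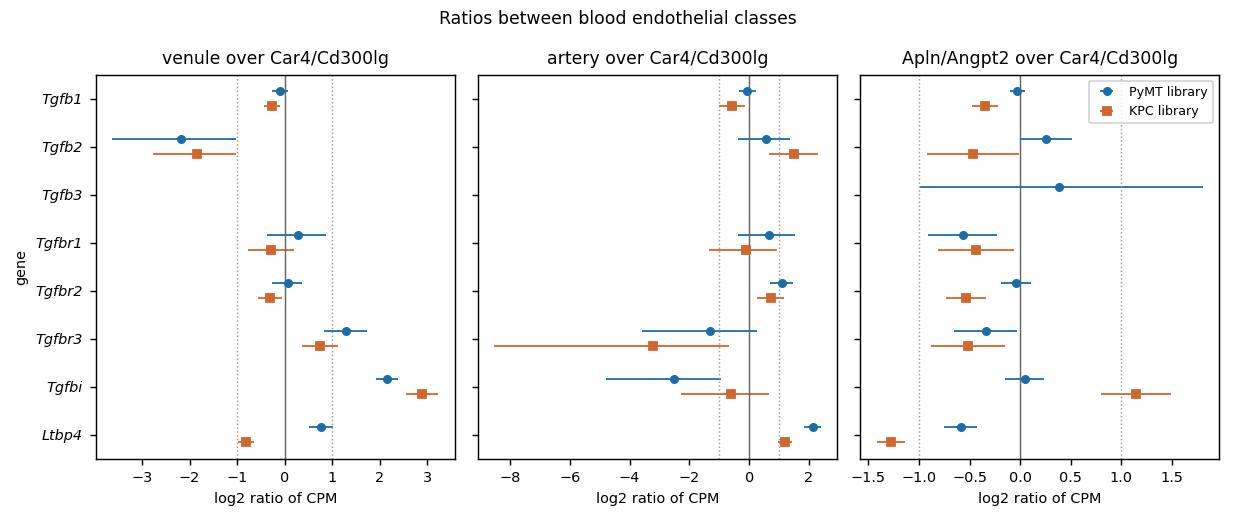
Log2 ratio of CPM (x axis) of each gene (y axis) in venules, arteries and Apln/Angpt2 cells over Car4/Cd300lg cells, in the PyMT library (circles) and the KPC library (squares). Bars are exact 95% intervals for counting error, dotted lines mark 2-fold, and genes under 20 UMIs are left out. Tgfbi is above 2-fold and Tgfb2 below 2-fold in venules of both libraries, and Ltbp4 is above 2-fold in arteries of both.

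Counted together, 3 of the 7 members read in venules over the Car4/Cd300lg class were past 2-fold in PyMT, Tgfbr3 and Tgfbi higher and Tgfb2 lower. Of all genes read in that comparison, 5.38% were higher and 4.38% lower past 2-fold. In KPC, Tgfbi was higher and Tgfb2 lower of 7 read, beside 3.71% and 6.17% of all genes. In arteries, Tgfbr2 and Ltbp4 were higher and Tgfbr3 and Tgfbi lower in PyMT (9.12% and 13.5% of all genes). In KPC, Tgfb2 and Ltbp4 were higher and Tgfbr3 lower (6.31% and 13.6%). In the Apln/Angpt2 class over the Car4/Cd300lg class, 0 of 8 members were past 2-fold in PyMT, where 0.947% of genes were higher and 1.78% lower. In KPC, Tgfbi was higher (2.20-fold, log2 ratio 1.14, interval 0.80 to 1.49) and Ltbp4 lower (2.43-fold, log2 ratio -1.28, interval -1.42 to -1.14), of 7 read and beside 3.73% and 7.5% of all genes. The KPC Tgfbi ratio was below 2-fold under the stricter cell filter and with thresholds raised by 1 UMI, with a lowest log2 ratio of 0.86, which left 1 member past 2-fold there. In PyMT arteries, Tgfbr2 was at 0.99 under the stricter cell filter and Tgfbr3 at -0.97 without cells of more than 1 class.

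The latency list (11 genes of latent complex binding and anchoring) was higher in arteries for 5 of 7 genes read in PyMT and 3 of 7 in KPC, with 0 and 2 lower, beside 9.12% higher and 13.5% lower of all genes in PyMT and 6.31% and 13.6% in KPC. The median log2 ratio of the list was 1.32 in PyMT and 0.04 in KPC, against -0.02 and -0.06 over all genes. Fbln5, an elastic fiber gene, stood at 484 CPM in PyMT arteries against 49.3 CPM in the Car4/Cd300lg class (log2 ratio 3.30, interval 3.07 to 3.51), and at 1821 against 19.9 CPM in KPC (log2 ratio 6.52, interval 6.16 to 6.89). It is also an artery marker here. Fbn1, which encodes fibrillin-1, stood at 26.7 against 2.68 CPM in PyMT arteries, and Fn1 (fibronectin) at 606 against 45.9 CPM in KPC arteries. Mmp2, a gelatinase gene of the activation list, was higher in arteries and in venules of both libraries, and in PyMT arteries it stood at 57.4 against 2.36 CPM. Beside these results, the 5 smooth muscle markers summed to 361 CPM in PyMT arteries and 495 CPM in KPC arteries, against 10.2 and 179 CPM in the Car4/Cd300lg class. In PyMT, Acta2 stood at 291 CPM in arteries against 1.89 CPM and Tagln at 69.7 against 7.24 CPM, while Myh11, Cnn1 and Des were at 0 UMIs in arteries. In KPC, Acta2 stood at 380.2 against 93.4 CPM, Tagln at 105 against 69.6, Myh11 at 6.18 against 4.75 and Des at 3.09 against 11.2 CPM, with Cnn1 at 0 UMIs in arteries. The part of mural cell RNA in the artery values was not tested.

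In venules, the target list (23 genes) had 5 genes higher and 0 lower of 19 read in PyMT, and 4 higher and 4 lower of 19 in KPC. Of all genes read, 5.38% were higher and 4.38% lower in PyMT, and 3.71% and 6.17% in KPC. Tagln (transgelin, an actin-binding protein) stood at 79.3 CPM in PyMT venules against 7.24 CPM in the Car4/Cd300lg class (log2 ratio 3.45, interval 3.05 to 3.86), and at 293 against 69.6 CPM in KPC (log2 ratio 2.07, interval 1.87 to 2.28). Timp3 and Cdkn1a were lower in KPC venules, with log2 ratios of -1.61 and -1.31. Of the receptor list, Bgn (biglycan, a proteoglycan that binds TGF-beta) was higher in venules of both libraries, 505 against 141 CPM in PyMT and 536 against 60.7 CPM in KPC. Acvrl1, the endothelial type I receptor gene, and Nrp1 were lower in KPC venules, with log2 ratios of -1.13 and -1.52.

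In KPC Apln/Angpt2 cells, Tagln (500 against 69.6 CPM) was also above the Car4/Cd300lg class. There 5 targets were higher and 4 lower of 20 read, beside 3.73% and 7.5% of all genes. In PyMT, 2 targets were higher and 0 lower of 19, beside 0.947% and 1.78% of all genes. The 2 were Acta2 (8.68 against 1.89 CPM) and Ctgf (31.4 against 9.60 CPM). Thbs1, which encodes thrombospondin-1, an activator of latent TGF-beta, was higher in the Apln/Angpt2 class of both libraries, with log2 ratios of 1.61 (interval 1.48 to 1.74) and 1.12 (interval 1.02 to 1.23).

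Lymphatic cells were compared with blood endothelium as a whole. Of the 8 members, 5 were higher past 2-fold and 0 lower in PyMT (11.8% and 7.9% of all genes), and 4 were higher and 0 lower in KPC (9.52% and 10.1%). Tgfb3 was 35.5-fold higher in PyMT (log2 ratio 5.15, interval 4.48 to 5.87) and 33.4-fold higher in KPC (log2 ratio 5.06, interval 4.25 to 5.98). Tgfbr2 was 3.34-fold and 2.997-fold higher, and Ltbp4 4.18-fold and 2.40-fold. Tgfb3 and Tgfbr2 stayed past 2-fold in both libraries under every setting tried, and Ltbp4 in PyMT, while in KPC the Ltbp4 log2 ratio was 0.98 with the mean of per-cell CPM. Tgfbi was higher with log2 ratios of 1.96 (interval 1.80 to 2.12) and 0.81 (interval 0.64 to 0.97), Tgfbr3 with 1.09 (0.77 with the mean of per-cell CPM, where 4 members were past 2-fold in PyMT) and 0.74, and Tgfb2 with 0.94 and 1.92. Tgfb1 differed little (0.20 and 0.19), and Tgfbr1 had log2 ratios of -0.29 (interval -0.91 to 0.28) and -0.81 (interval -1.29 to -0.35).

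The latency list was also higher in lymphatic cells: 8 of 9 genes read were higher and 1 lower in PyMT, and 7 were higher and 1 lower of 9 in KPC. Its median log2 ratio was 2.23 in PyMT and 1.38 in KPC, beside 0.08 and 0.04 over all genes. Ltbp1, another latent TGF-beta binding protein gene, stood at 33.0 CPM in PyMT lymphatic cells against 1.12 CPM in blood endothelium (log2 ratio 4.88, interval 4.28 to 5.52). Mfap2, a microfibril gene, stood at 39.7 against 1.62 CPM. In KPC, Fn1 stood at 906 against 100.3 CPM (log2 ratio 3.18, interval 3.09 to 3.26) and Fbn1 at 86.8 against 5.81 CPM. Nrros, which anchors latent TGF-beta on myeloid cells, was the lower gene in both libraries, with log2 ratios of -1.70 and -2.43. Among receptors and mediators, Dcn (decorin) was higher in lymphatic cells, 331 against 7.54 CPM in PyMT and 148 against 13.5 CPM in KPC. Acvrl1 was lower in KPC (40.1 against 118 CPM), and Smad7, which encodes an inhibitory SMAD, was lower in both libraries (5.62 against 18.01 CPM and 8.77 against 37.8 CPM). The 6 fibroblast markers, of which Dcn and Fn1 are members, summed to 1425 CPM in PyMT and 1099 CPM in KPC lymphatic cells, against 150.0 to 406 CPM and 90.0 to 624 CPM in the blood classes. Fn1 alone stood at 1064 CPM in PyMT and 906 CPM in KPC lymphatic cells. Fbln1 stood at 13.5 and 10.2 CPM, against at most 1.33 and 3.09 CPM in the blood classes. Col3a1 stood at 15.0 and 31.4 CPM, against at most 17.3 and 25.7 CPM. Lum was at 0.375 and 3.11 CPM (blood classes at most 0.236 and 4.19 CPM). Pdgfra was at 0.375 and 0.848 CPM (blood classes at most 0.307 and 1.12 CPM). The part of fibroblast RNA in the lymphatic values was not tested.

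Fibroblasts, pericytes and Krt8/Krt18 cells are minor populations of a BEC sort, and their PyMT values rest on 28, 27 and 379 cells. In KPC fibroblasts, 5 members were higher and 1 lower past 2-fold than in blood endothelium (14% and 20.2% of all genes). Tgfb3 (74.1-fold), Tgfb2 (4.51-fold), Tgfbr2 (3.57-fold), Tgfbr1 (2.86-fold) and Tgfbr3 (2.60-fold) were higher, and Ltbp4 was 2.67-fold lower (log2 ratio -1.42, interval -1.68 to -1.16). All 3 receptor genes were thus higher in KPC fibroblasts. In this comparison median-of-ratios scaling shifted every log2 ratio by 0.24, and the genes past 2-fold changed from 1680 higher and 2424 lower to 2046 higher and 1879 lower, with the same 5 and 1 members counted. In PyMT fibroblasts, 4 members were higher and 0 lower (15.7% and 39.8% of all genes): Tgfb3 (log2 ratio 6.35, interval 5.06 to 7.51), Tgfbr2 (2.53, interval 2.08 to 2.95), Tgfbr3 (2.09, interval 0.86 to 3.08) and Tgfb2 (1.31, interval -0.14 to 2.44, which includes 0). The Tgfbr3 ratio was 0.25 in the 15 of these cells without a Pecam1 or Cdh5 UMI, a restriction chosen after seeing the data.

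In KPC pericytes, Tgfb3 was 42.3-fold higher (log2 ratio 5.40, interval 4.33 to 6.51) and Tgfb2 5.02-fold higher (log2 ratio 2.33, interval 1.76 to 2.86) than in blood endothelium, and Tgfbi was 4.81-fold lower (log2 ratio -2.27, interval -3.59 to -1.22). These were 2 members higher and 1 lower of 8, beside 9.79% and 12.9% of all genes. Tgfbr2 was at 73.3 CPM in KPC pericytes and 75.8 CPM in KPC blood endothelium (log2 ratio -0.05, interval -0.57 to 0.43), and Tgfb1 at 112 against 186 CPM (log2 ratio -0.73, interval -1.15 to -0.35). The KPC pericyte class carried 2857 CPM of the endothelial markers, against 3818 to 6511 CPM in the KPC blood classes, and 62.2% of its cells had a Pecam1 or Cdh5 UMI. In the 45 cells without one, a restriction chosen after seeing the data, 1 member was higher and 4 were lower of 7 read (Tgfbr2, Tgfbr3 and Ltbp4 among the lower). The share of all genes past 2-fold was not computed for these 45 cells, so these counts have no background beside them. In PyMT, Tgfb3, Tgfbr2 and Ltbp4 were higher (17% and 29.2% of all genes higher and lower). The log2 ratio of Tgfb3, from 4 UMIs, was 5.28 (interval 3.29 to 6.82), that of Tgfbr2 1.35 (interval 0.62 to 2.001) and that of Ltbp4 1.17 (interval 0.33 to 1.90). The Tgfbr2 value turned to -0.43 without cells that reached another class.

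The Krt8/Krt18 cells differed in marker levels between the libraries, with summed tumor markers of 4824 CPM in KPC and 41.4 CPM in PyMT. In KPC, where the class had the higher epithelial marker levels, 1 member was higher and 6 were lower than in blood endothelium (15.9% and 23.9% of all genes). Tgfb3 was 16.0-fold higher there. Tgfbi was 24.9-fold lower (2.76 against 68.6 CPM), Tgfbr3 12.7-fold, Ltbp4 8.84-fold, Tgfb2 7.50-fold, Tgfbr2 3.34-fold and Tgfb1 2.23-fold lower. Median-of-ratios scaling, which added 0.21 to every log2 ratio, left 5 lower, without Tgfb1. In PyMT, 2 members were higher and 2 lower (10.8% and 19.8% of all genes). Tgfb3 was 65.5-fold higher and Tgfbi 2.29-fold higher (log2 ratio 1.19, with 1.38 as the upper bound of its interval), and Ltbp4 was 3.11-fold and Tgfb2 2.33-fold lower. Between the libraries, Tgfbi in Krt8/Krt18 cells stood at 95.1 CPM in PyMT and 2.76 CPM in KPC (log2 ratio 5.11, interval 4.56 to 5.70).

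**Figure D3:**
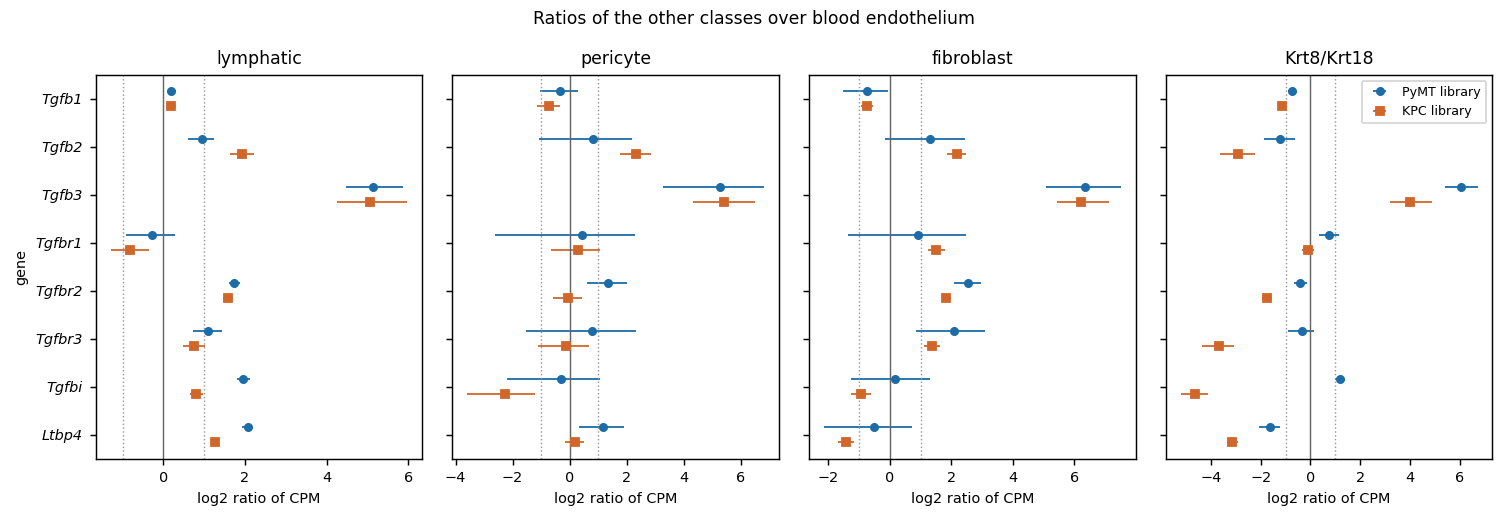
Log2 ratio of CPM (x axis) of each gene (y axis) in lymphatic, pericyte, fibroblast and Krt8/Krt18 cells over blood endothelium, in the PyMT library (circles) and the KPC library (squares), with exact 95% intervals for counting error and dotted lines at 2-fold. Tgfb3 lies past 2-fold higher in every panel and library, and Tgfbi in Krt8/Krt18 cells lies on opposite sides of 0 in the libraries.

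Between the tumor models, Ltbp4 was the only member past 2-fold in blood endothelium as a whole, where 2.85% of all genes were higher and 7.79% lower in PyMT than in KPC. It stood at 56.0 CPM in PyMT and 148 CPM in KPC, 2.64-fold lower in PyMT (log2 ratio -1.40, interval -1.50 to -1.31). Every endothelial class had less Ltbp4 in PyMT: the log2 ratio was -2.004 in the Car4/Cd300lg class (interval -2.15 to -1.86), -1.31 in the Apln/Angpt2 class, -1.07 in arteries, -0.60 in lymphatic cells and -0.42 in venules (interval -0.70 to -0.15). The unclassified cells, which carried the 6 endothelial markers at 3632 CPM in PyMT and 5186 CPM in KPC and held 38.4% and 38.0% of all Ltbp4 UMIs, had -1.69. The other members were closer. Tgfbr3 had a log2 ratio of -0.86 (interval -1.06 to -0.66), Tgfbr1 -0.81 (interval -1.04 to -0.59) and Tgfbi -0.72 (interval -0.84 to -0.60). Tgfb2 was higher in PyMT at 0.47 (interval 0.23 to 0.70) and Tgfb1 at 0.25 (interval 0.19 to 0.32), while Tgfbr2 had -0.28 and Tgfb3 -0.08 (interval -1.09 to 0.99). In this comparison median-of-ratios scaling raises every log2 ratio by 0.11. The makeup of blood endothelium also differed, with venules at 360 of 5074 cells in PyMT and 640 of 3344 in KPC. Within venules alone Tgfbi had a log2 ratio of -0.18 (interval -0.40 to 0.05). Within the Apln/Angpt2 class it had -0.54 (interval -0.73 to -0.345). In the Car4/Cd300lg class Tgfbi was higher in PyMT, at 35.0 against 23.8 CPM, and arteries held only 3 and 5 UMIs. The part of makeup in the Tgfbi ratio of blood endothelium was not tested.

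**Figure D4:**
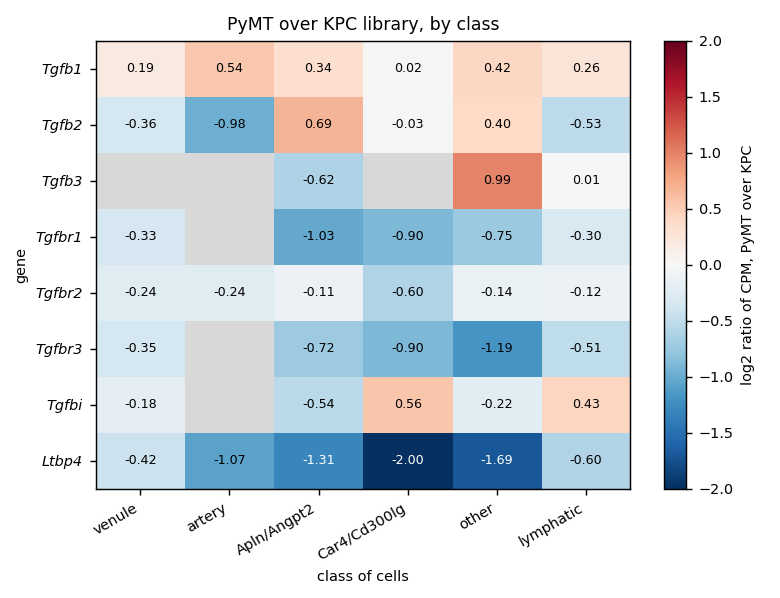
Log2 ratio of CPM in the PyMT library over the KPC library for each gene (rows) in 6 classes of cells (columns), with the value printed in each cell, blue for lower in PyMT, red for higher in PyMT and grey where the gene had under 20 UMIs. Ltbp4 is negative in all 6 classes, from -2.004 in Car4/Cd300lg cells to -0.42 in venules.

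In the same comparison, of 21 target genes read, 11 were lower past 2-fold in PyMT blood endothelium and 0 higher, with a median log2 ratio of -1.02 for the list beside -0.11 over all genes. Under median-of-ratios scaling the counts were 9 lower and 1 higher. The largest differences were Tagln (13.5 against 351 CPM, log2 ratio -4.70, interval -4.85 to -4.55) and Acta2 (11.2 against 166 CPM, log2 ratio -3.89, interval -4.07 to -3.72). Acta2 encodes smooth muscle actin, and both genes are widely used readouts of TGF-beta signaling as well as mural cell markers. Among better counted targets, Ctgf (-1.68), Timp3 (-1.55), Tsc22d1 (-1.52), Cdkn1a (-1.08) and Cyr61 (-1.02) were lower in log2 ratio. Col4a1 (1182 against 1195 CPM), Zeb1 (110 against 114 CPM) and Sparc (4873 against 4520 CPM) were close. The smooth muscle markers, of which Acta2 and Tagln are members, summed to between 10.2 and 361 CPM in the PyMT blood classes and between 179 and 698 CPM in the KPC blood classes. Myh11 stood at 0 to 0.157 CPM in the PyMT and 0.341 to 6.18 CPM in the KPC blood classes, and Des at 0 to 0.866 and 0.341 to 11.2 CPM. In KPC Apln/Angpt2 cells, where Tagln was highest among blood classes (500 CPM), Myh11 stood at 0.354 CPM and Des at 0.826 CPM. KPC fibroblasts held Tagln at 1321, Acta2 at 1603, Myh11 at 14.8 and Des at 104 CPM. The fibroblast and pericyte classes held 443 and 119 cells in KPC, and 28 and 27 in PyMT. The part of mural cell and fibroblast RNA in the target values was not tested.

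Beside the other lists, 2.85% of all genes were higher and 7.79% lower in PyMT, and the counts of the receptor list (1 higher and 1 lower) and the transducer list (1 lower) are near those shares. The activation list had 2 of 13 genes lower and 0 higher in PyMT, Thbs1 (110 against 435 CPM, log2 ratio -1.98) and Thbs2 (-2.11). In the receptor list, Acvrl1 was lower in PyMT (52.7 against 118 CPM, log2 ratio -1.16) and Cd109 higher (63.3 against 24.0 CPM, log2 ratio 1.40), of 13 read. Smad7, itself induced by TGF-beta, was the only transducer of 18 past 2-fold (18.01 against 37.8 CPM, log2 ratio -1.07). Under median-of-ratios scaling 0 transducers were past 2-fold. In the latency list, Mfap2 (-4.25) and Ltbp1 (-1.15) were lower and Fn1 higher (226 against 100.3 CPM, log2 ratio 1.17), of 9 read.

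**Figure D5:**
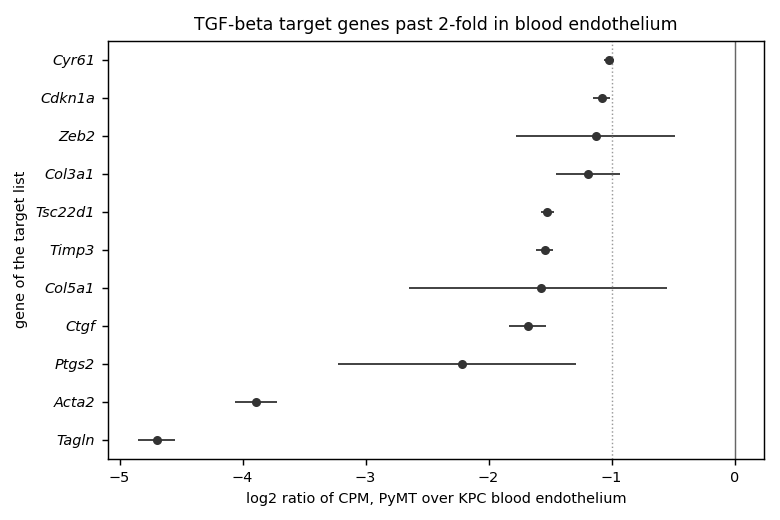
Log2 ratio of CPM in PyMT over KPC blood endothelium (x axis) for the 11 genes of the target list past 2-fold (y axis, ordered by ratio), with exact 95% intervals for counting error and a dotted line at 2-fold. All 11 are lower in PyMT, and Tagln is the lowest at -4.70.

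Likeness between genes was described by Pearson's r of log2(CPM + 1) over the 18 class sums (9 classes in each library), among 9462 genes with at least 200 UMIs in each library. These points share libraries and depth, and no p-value applies. Nearest to Tgfb1 were Cd40 (r = 0.91), Nxpe2 and Elk3, nearest to Tgfb2 were Adprh (0.82), Pkd1 and P3h3, and among those near Tgfb3 were Arhgap42 (0.92) and Loxl3. Nearest to Tgfbr1 were Sdf2 (0.86), Nr4a2 and Erp44, to Tgfbr2 Prickle1 (0.90), Selenon and Wbp1l, and to Tgfbr3 Rab3il1 (0.89), Mdfic and Ago3. Nearest to Tgfbi were Smad5 (0.84), Hp1bp3 and Tmem173, and to Ltbp4 Lmcd1 (0.95), Utrn and Lmo2. Among the members themselves the highest values were 0.78 for Tgfb2 with Tgfbr2 and 0.68 for Tgfbi with Tgfbr3, and the lowest was -0.60 for Tgfb1 with Tgfbr1. All 3 of these pairs kept their sign within each library.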

How the data were processed

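The authors deposited, for each library, a matrix of UMI counts per gene and barcode made with Cell Ranger (version 3.0 in the submitters' processing notes, 3.0.2 in the matrix headers) on mm10, together with feature and barcode lists. The counts were used as deposited. The study's methods and protocol text name different 10x kit versions (v2 and v3), so the kit is not settled here. No annotation of cells was among the files used, so classes were rebuilt from UMI sums, and class names may differ from the study's. Doublets were not called: 10.5% of PyMT and 7.59% of KPC cells reached more than 1 class, and leaving them out was an alternative.

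UMIs were summed per class. Levels carry exact Poisson intervals, and ratios carry exact intervals from the Clopper-Pearson limits of the share of UMIs in either class (Python 3.11.15, numpy 2.4.6, scipy 1.17.1). With 0 UMIs, the level of 3 UMIs was the bound. Thinning drew 2000 UMIs from each cell and left out shallower cells. The ratio code was tested on simulated data. Members, pathway lists, class rule and markers were chosen with earlier results of these data known. Named genes were the 8 members, up to 2 genes per pathway list and direction with the largest ratio, further genes of the target list chosen after their values were seen, and the 3 genes most like each member. Some results under this rule are not reported here. Positions came from GENCODE M21 and promoters from RefSeq.

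Alternatives were stricter cell filters, thresholds raised by 1 UMI, cells of more than 1 class left out, endothelial classes limited by Pecam1, Cdh5 and Ptprc, mean per-cell CPM, totals without mitochondrial and ribosomal genes, median-of-ratios scaling, thinning, and no UMI minimum. After seeing the data, stromal and Krt8/Krt18 classes without Pecam1 and Cdh5 UMIs and equal weighting of the 4 blood classes were added.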

Additional observations from a re-analysis of the deposited data

Results flagged for a closer look

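The ratio of Ltbp4 in venules over the Car4/Cd300lg class had opposite signs in the libraries, with a log2 value of 0.77 in PyMT and -0.81 in KPC. There was 1 library per model, so the difference was not tested. Capillary markers were highest in the Car4/Cd300lg class for 0 of 6 genes in PyMT and 5 of 6 in KPC, and the class's median depth was 4254 UMIs in PyMT and 1879 in KPC. Their part in the result was not tested. In cells thinned to 2000 UMIs, the share with an Ltbp4 UMI was 18.6% in PyMT venules and 11.5% in the Car4/Cd300lg class, and 23.5% and 34.7% in KPC.

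Tgfbi in the Krt8/Krt18 class over blood endothelium also had opposite signs, with a log2 value of 1.19 in PyMT and -4.64 in KPC, and this difference was not tested either. The 6 epithelial markers summed to 41.4 CPM in the PyMT class and 4824 CPM in the KPC class. Of the cells of this class, 45.6% in PyMT and 39.2% in KPC had a Pecam1 or Cdh5 UMI, unthinned at median depths of 6939 and 12688 UMIs. The endothelial markers summed to 535 CPM in the PyMT class and 241 CPM in the KPC class.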

How the results depend on the processing

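The ratios of the 8 members were recomputed 1063 times over the alternatives, 115 of them without the UMI minimum. Those 115 used the same sums and genes as the reported ratios, so they could not differ from them. Of all 1063 values, 988 stayed within the interval of the reported ratio, 74 left it and 1 reversed a ratio past 2-fold. The reversed ratio was Tgfbr2 in PyMT pericytes over blood endothelium, -0.43 in place of 1.35 when cells of more than 1 class were left out. Sign changes of ratios below 2-fold were not counted as such, and some of these near 0 did change sign. Of 51 ratios past 2-fold, 42 stayed past 2-fold in the same direction in every setting in which they were read. Some of the 42 were not read in all settings. Tgfbr3 in KPC arteries was read in 6, and Tgfbi in PyMT arteries and Tgfb3 in pericytes of both libraries in 8. The other 9 came nearest to 0 at these log2 ratios: in PyMT arteries 0.99 for Tgfbr2 and -0.97 for Tgfbr3, in KPC Apln/Angpt2 cells 0.86 for Tgfbi, in lymphatic cells 0.77 for Tgfbr3 (PyMT) and 0.98 for Ltbp4 (KPC), in PyMT pericytes 0.85 for Ltbp4 and the reversed Tgfbr2 value, in PyMT fibroblasts 0.25 for Tgfbr3, and in KPC Krt8/Krt18 cells -0.95 for Tgfb1. The count of members past 2-fold in KPC Apln/Angpt2 over Car4/Cd300lg cells was 1 in place of 2 under the stricter filter (1000 genes, mitochondrial share below 5%), and 1 with thresholds raised by 1 UMI. In PyMT pericytes it was 5 in place of 3 with raised thresholds and 7 in the 4 cells without Pecam1 and Cdh5 UMIs. In KPC pericytes it was 5 in place of 3 in the 45 cells without them. For PyMT over KPC blood endothelium it was 2 in place of 1 after thinning and 2 with the blood classes weighted equally. The cause of these changes was not tested, except that the pericyte settings leave fewer cells. Shares of all genes past 2-fold were not computed for these changed counts, so they are not read as results about the members. No paired analysis was possible because each tumor model had 1 library, and leaving out a replicate was not possible for the same reason. Depth limits the artery and PyMT stromal values most: a member at 3 UMIs stood at 6.15 CPM in PyMT arteries and 23.6 CPM in PyMT fibroblasts.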
